A study of Mus musculus with 12 samples.

Results

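The 10 genes described here encode DNA-binding factors and their cofactors that set the gene programme of red cell precursors: Gata1, Klf1, Tal1, Zfpm1, Ldb1, Lmo2, Zbtb7a, Nfe2, Gfi1b and Bcl11a. They were taken by name, and each was measured by 1 probe set that carries its symbol alone, so 10 of 10 members were found among the 19935 genes measured. Expression was measured on whole-transcript microarrays in bone marrow cells of male C57BL/6J mice aged 10 to 12 weeks, enriched with antibody and magnetic beads for CD71, the transferrin receptor of red cell precursors. The 12 arrays, 1 for each mouse, fell into 4 groups of 3: mice with a CD70 transgene that lack the gene for interferon-gamma (CD70TG*Ifng-/-), mice with the CD70 transgene (CD70TG, given in the labels as clone F13), mice that lack interferon-gamma (Ifng-/-) and wild type (WT). The study asked how the transgene for CD70, a ligand that stimulates T cells through CD27, acts on these cells and which part depends on interferon-gamma. No source used here names the promoter of the transgene or the extent of the Ifng deletion.

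Gata1 is a zinc finger factor that binds GATA sites and is needed for red cell precursors to mature, and Klf1 binds CACC boxes in the globin genes and other red cell genes. Tal1 binds E-boxes, and Lmo2 and Ldb1 carry no DNA-binding domain of their own but bridge Tal1 and Gata1 into a complex that joins enhancers to promoters. Zfpm1, also called FOG1, is a cofactor bound by Gata1, Nfe2 is the large subunit of a factor active at the globin control region, and Gfi1b, Zbtb7a and Bcl11a are repressors, the last of which silences fetal-type globin genes. Several of these genes are also used outside the red cell line: Gata1, Zfpm1, Nfe2 and Gfi1b in megakaryocytes, Gata1 in mast cells and eosinophils, and Bcl11a in B cell precursors.

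Values are deposited on a log2 scale with every probe set's median over the 12 arrays at 0, so they are differences and not levels, and levels cannot be compared between genes. The rounding of the deposited numbers still shows whether a probe set's original log2 level was at least 8 in all 12 arrays. That was so for 8 of the 10 factors, all but Zbtb7a and Bcl11a, against 14.4% of all genes. All 7 measured markers of red cell precursors, among them the CD71 gene Tfrc, the haem synthesis enzyme Alas2 and the anion exchanger Slc4a1, lay in that class too. None of the 15 macrophage, 14 B cell, 12 T and NK cell, 8 megakaryocyte, 12 mast cell, basophil and eosinophil or 9 stem and progenitor markers did, and 4 of 13 neutrophil markers did. A probe set under 8 in only some arrays is outside the class. Markers that differ widely between groups, such as those of macrophages, may therefore have been at 8 or more in part of the arrays. Ifng ran from -0.11 to 0.20 in CD70TG*Ifng-/-, from -0.11 to 0.05 in CD70TG, from -0.16 to -0.01 in Ifng-/- and from -0.09 to 0.16 in WT, and it passed in neither comparison with and without the gene, so the genotype cannot be read from it (limma, adjusted p = 0.632 in Ifng-/- against WT and 0.871 in CD70TG*Ifng-/- against CD70TG). Cd70 was measured between 0.05 and 0.34 in CD70TG*Ifng-/- and between -0.49 and 0.04 in Ifng-/-, and between -0.01 and 0.05 in CD70TG and between -0.38 and -0.12 in WT, without passing the test in either comparison (limma, adjusted p = 0.135 without Ifng and 0.18 with it).

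Promoter sequence from RefSeq (GRCm38.p6) was at hand for 8 of the 10 factors, with 11 start sites in all. The 250 bases before the start site are shown for the 2 factors that passed the test, Zbtb7a and Ldb1, and for Gata1 and Klf1, the factors that bind the marked motifs. Capitals mark GATA motifs (A or T followed by GATAA or GATAG) and CACCC, each searched on both strands, so that a run such as TTATCT matches on the opposite strand.
Zbtb7a promoter (chr10:81136021-81136270, + strand): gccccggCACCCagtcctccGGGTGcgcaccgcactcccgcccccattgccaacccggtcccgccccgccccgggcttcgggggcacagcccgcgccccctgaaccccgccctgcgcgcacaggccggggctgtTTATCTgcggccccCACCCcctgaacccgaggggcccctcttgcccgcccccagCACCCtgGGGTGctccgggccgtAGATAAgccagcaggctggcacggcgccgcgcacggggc
Ldb1 promoter (chr19:46037071-46037320, - strand): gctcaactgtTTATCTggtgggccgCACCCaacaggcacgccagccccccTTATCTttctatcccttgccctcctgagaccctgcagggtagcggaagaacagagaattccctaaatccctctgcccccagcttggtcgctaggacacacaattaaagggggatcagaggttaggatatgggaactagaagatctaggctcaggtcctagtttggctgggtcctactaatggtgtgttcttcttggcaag
Klf1 promoter (chr8:84901732-84901981, + strand): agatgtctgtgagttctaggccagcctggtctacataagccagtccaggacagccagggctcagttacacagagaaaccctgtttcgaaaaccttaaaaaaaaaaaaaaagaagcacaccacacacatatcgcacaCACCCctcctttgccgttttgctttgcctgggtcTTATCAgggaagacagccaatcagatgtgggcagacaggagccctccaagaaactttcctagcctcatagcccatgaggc
Gata1 promoter (chrX:7967911-7968160, - strand): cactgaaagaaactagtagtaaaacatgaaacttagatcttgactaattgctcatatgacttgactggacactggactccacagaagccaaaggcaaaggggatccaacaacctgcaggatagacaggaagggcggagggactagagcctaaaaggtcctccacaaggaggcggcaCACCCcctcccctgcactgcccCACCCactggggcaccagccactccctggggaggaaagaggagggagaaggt
Zbtb7a held 2 GATA motifs and 5 CACCC motifs in this window. The Ldb1 start site shown, 1 of 3, held 2 GATA motifs, and the other two held none. Klf1 held 1 GATA motif, 80 bases before its start, and Gata1 held 2 CACCC motifs and no GATA motif in these letters. Over all factors, 5 of 11 windows held a GATA motif, against 26.5% of 32851 windows of the same length, 10 of 11 held CACCC, against 52.0%, and 5 of 11 held an E-box (CANNTG), against 66.2%. GATA and CACCC matches overlapped in 0 of the 11 windows and an E-box overlapped either in 1. These matches describe letters in the windows and are no evidence of binding.

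With interferon-gamma intact, the transgene was accompanied by higher Ldb1 and Zbtb7a on the deposited values, and no factor fell on them. Of the 10 factors, 2 rose and 0 fell in CD70TG against WT, where 8.23% of all genes rose and 2.7% fell (limma over all 19935 genes with Benjamini-Hochberg adjustment, threshold 0.05). The median change of the 10 was 0.18, with a lowest of -0.15 for Lmo2 and a highest of 0.45 for Zbtb7a. Among the 2871 genes in the higher level class the median change was also positive, at 0.19, and 22.4% rose, while the median over all genes was -0.023. Of the 8 factors in that class only Ldb1 rose, so rises were no more frequent among the factors than in that class. Of the 10 factors 4 had an unadjusted p under 0.05, as had 26.3% of all genes, and 10.9% of all genes passed in either direction. That background rests on single arrays: with 1 left out, between 853 and 2721 genes passed in place of 2179, and without WT 1 511 rose in place of 1640. The calls of the factors do too, and 0 of 10 passed without WT 1, CD70TG 1 or CD70TG 2. In this comparison 5 factors lay above WT in every CD70TG array and 1 lay below, and 17.6% of all genes lay above and 13.5% below. These shares were not counted within the higher level class, to which most of the factors belong.

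**Figure D1:**
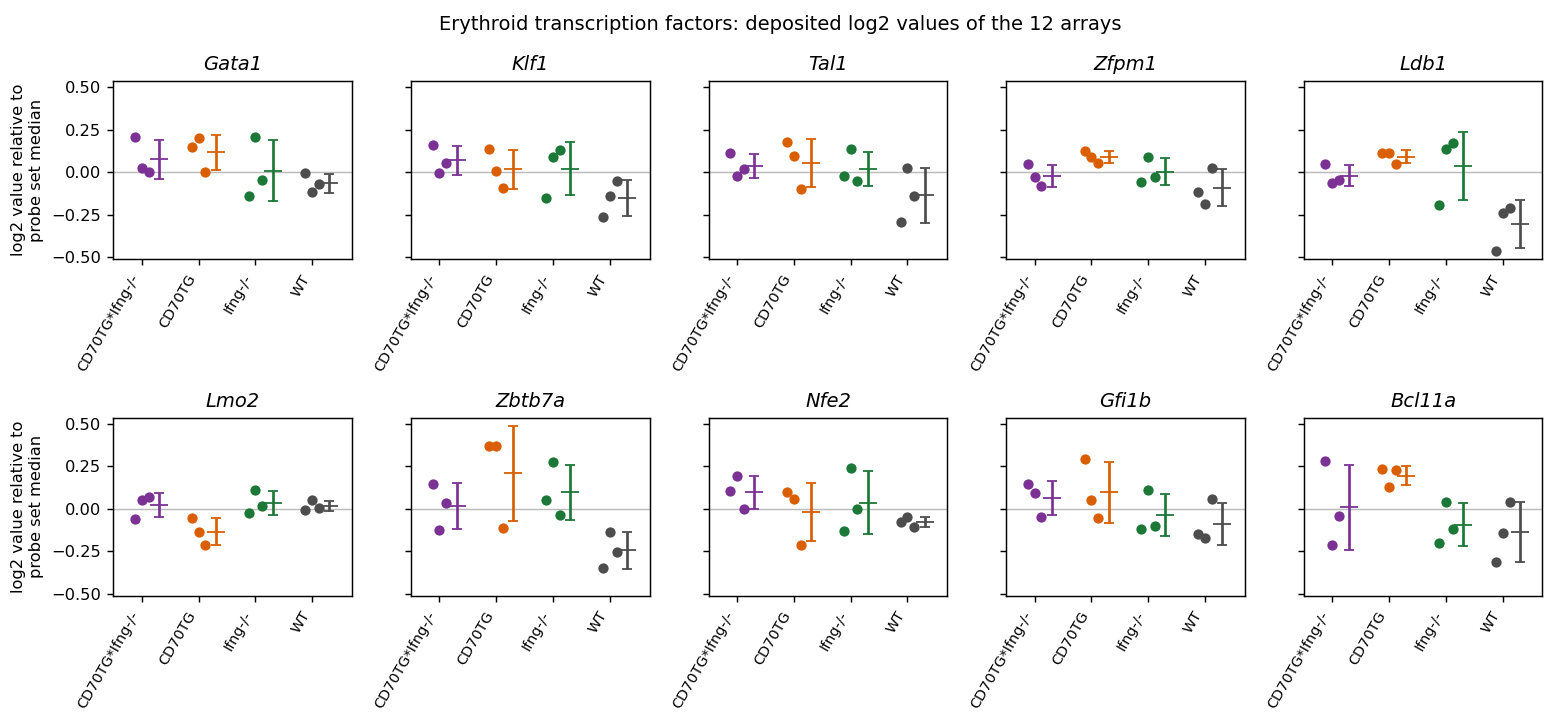
Deposited log2 values of the 10 factors, relative to each probe set's median, by genotype group. Points are mice, and the bars beside them are means ± SD (n = 3). The WT mean is the lowest of the 4 in 9 of the 10 factors, and Lmo2 is the exception with its lowest mean in CD70TG.

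Array by array, the 8 factors of the higher level class followed the other bright genes. The median of these 8 in an array differed from the median of the 2863 other bright genes by between -0.07 and 0.053. It was highest in CD70TG 1, at 0.130, where the other bright genes had a median of 0.140. It was lowest in WT 1 and WT 2, at -0.131 each, where the other bright genes had medians of -0.143 and -0.061. Each factor is therefore given below also with every array centred on its median within either level class. That scaling removes, by its construction, the shift of the bright genes, and under it the median difference of the 10 factors was 0.01 in CD70TG against WT and between 0.00 and 0.04 over the 7 comparisons. Under it Ldb1 did not pass, while Zbtb7a passed as higher and Lmo2 as lower, against 5.8% of all genes higher and 3.12% lower. These shares were not counted within the level classes. Zbtb7a lies in the lower level class, so this scaling takes the shift of the bright genes from Ldb1 and Lmo2 but not from Zbtb7a.

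**Figure D2:**
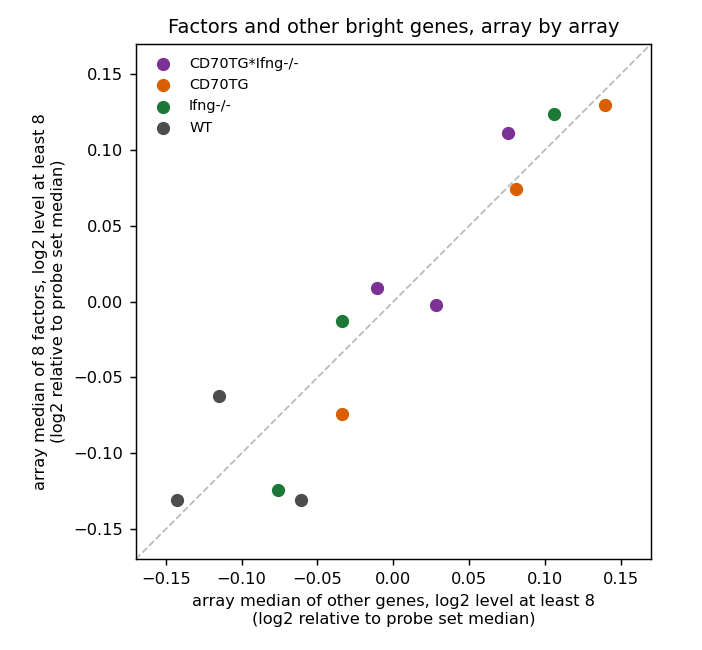
Median of the 8 factors with a log2 level of at least 8 (vertical axis) against the median of the 2863 other genes of that class (horizontal axis), both as log2 values relative to probe set medians, with 1 point for each array. The dashed line is equality. CD70TG 1 and Ifng-/- 2 stand at the upper right, and the 3 WT arrays and Ifng-/- 1 at the lower left. The groups are not separated, since CD70TG 3 (-0.074) has a lower factor median than WT 3 (-0.062).

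Gata1 gave values of 0.209, 0.023 and -0.002 in CD70TG*Ifng-/-, 0.145, 0.202 and 0.002 in CD70TG mice, -0.138, 0.207 and -0.047 in Ifng-/-, and -0.005, -0.119 and -0.071 in WT. The 3 CD70TG mice lay above the 3 WT mice, by a margin smaller than the spread within either group. The CD70TG*Ifng-/- mice lay just above WT too, and the Ifng-/- mice overlapped with all groups. The difference between CD70TG and WT was 0.18 ± 0.10 (SE, n = 3 per group, 95% interval -0.02 to 0.39, adjusted p = 0.247). It was 0.01 ± 0.07 after centring within the level classes.

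Klf1 gave 0.160, -0.005 and 0.053 in CD70TG*Ifng-/-, 0.136, 0.005 and -0.094 in CD70TG mice, -0.154, 0.090 and 0.129 in Ifng-/-, and -0.264, -0.142 and -0.053 in WT. The WT mice were low, but WT 3 overlapped with CD70TG 3. The differences from WT were 0.22 ± 0.09 in CD70TG*Ifng-/- (adjusted p = 0.255), 0.17 ± 0.09 in CD70TG (adjusted p = 0.272) and 0.17 ± 0.09 in Ifng-/- (adjusted p = 0.411), and none passed. Tal1, the E-box factor, averaged 0.038 ± 0.070 in CD70TG*Ifng-/-, 0.056 ± 0.141 in CD70TG, 0.021 ± 0.10 in Ifng-/- and -0.135 ± 0.161 in WT (SD, n = 3). Its WT arrays were spread widely, with WT 1 lowest at -0.295, and the difference between CD70TG and WT of 0.19 ± 0.10 did not pass (adjusted p = 0.223). The same differences were 0.00 ± 0.08 for Klf1 and 0.02 ± 0.07 for Tal1 after centring within the level classes.

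Zfpm1, the cofactor of Gata1, averaged -0.022 ± 0.064 in CD70TG*Ifng-/-, 0.089 ± 0.037 in CD70TG, 0.002 ± 0.079 in Ifng-/- and -0.092 ± 0.109 in WT (SD, n = 3). All 3 CD70TG mice lay above all 3 WT mice, and the difference of 0.18 ± 0.08 did not pass (95% interval 0.02 to 0.34, adjusted p = 0.149). It was 0.01 ± 0.07 with centring within the level classes. Nfe2 averaged 0.098 ± 0.096 in CD70TG*Ifng-/-, -0.018 ± 0.168 in CD70TG, 0.037 ± 0.185 in Ifng-/- and -0.077 ± 0.030 in WT. Its CD70TG mice ranged from -0.211 to 0.099, around all 3 WT values, and the difference was 0.06 ± 0.10 (adjusted p = 0.755). Its sign turned after centring within the level classes, to -0.11 ± 0.08, and neither value passed (adjusted p = 0.423).

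The bridging proteins of the Tal1 complex, Ldb1 and Lmo2, differed from WT in opposite directions in CD70TG, but in neither scaling did both pass. On the deposited values Ldb1 alone of them passed, and with centring within the level classes Lmo2 alone did. Ldb1, which dimerises to join distant complexes, gave 0.048, -0.065 and -0.046 in CD70TG*Ifng-/-, 0.112, 0.113 and 0.046 in CD70TG mice, -0.194, 0.136 and 0.169 in Ifng-/-, and -0.464, -0.238 and -0.211 in WT. The WT mice were the 3 lowest of the 12, below every array of the other groups. In CD70TG it rose 1.31-fold against WT (log2 change 0.39 ± 0.10, SE, n = 3 each, limma adjusted p = 0.021). It differed from WT by 0.34 ± 0.10 in Ifng-/- (adjusted p = 0.245) and by 0.28 ± 0.10 in CD70TG*Ifng-/- (adjusted p = 0.172), and neither passed. With centring within the level classes the CD70TG against WT difference was 0.23 ± 0.08 and did not pass (adjusted p = 0.118), and the call was also lost without WT 1, CD70TG 1 or CD70TG 2, with differences of 0.31, 0.38 and 0.38.

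Lmo2, the adaptor that Ldb1 holds to Tal1, gave -0.060, 0.053 and 0.069 in CD70TG*Ifng-/-, -0.053, -0.134 and -0.214 in CD70TG mice, -0.027, 0.112 and 0.017 in Ifng-/-, and -0.005, 0.051 and 0.005 in WT. It was the only factor of the 10 below WT in CD70TG, and all 3 CD70TG mice lay below all WT and Ifng-/- mice. The difference from WT was -0.15 ± 0.07 and did not pass on the deposited values (95% interval -0.30 to 0.00, adjusted p = 0.2). Of the genes in its level class, 8.81% had a change further down than that of Lmo2. After centring within the level classes the values were -0.193, -0.216 and -0.180 in CD70TG against 0.138, 0.113 and 0.120 in WT. On that scale the groups were far apart for their spread, and the fall by 0.32 ± 0.06 passed (adjusted p = 0.0082). It kept passing on that scale with any 1 of the 12 arrays left out, with differences between -0.33 and -0.31 and adjusted p between 0.00428 and 0.0372. In the same scaling Lmo2 averaged -0.011 ± 0.109 in CD70TG*Ifng-/- and 0.035 ± 0.026 in Ifng-/- (SD, n = 3), and CD70TG*Ifng-/- differed from CD70TG by 0.19 ± 0.06 without passing (adjusted p = 0.221).

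**Figure D3:**
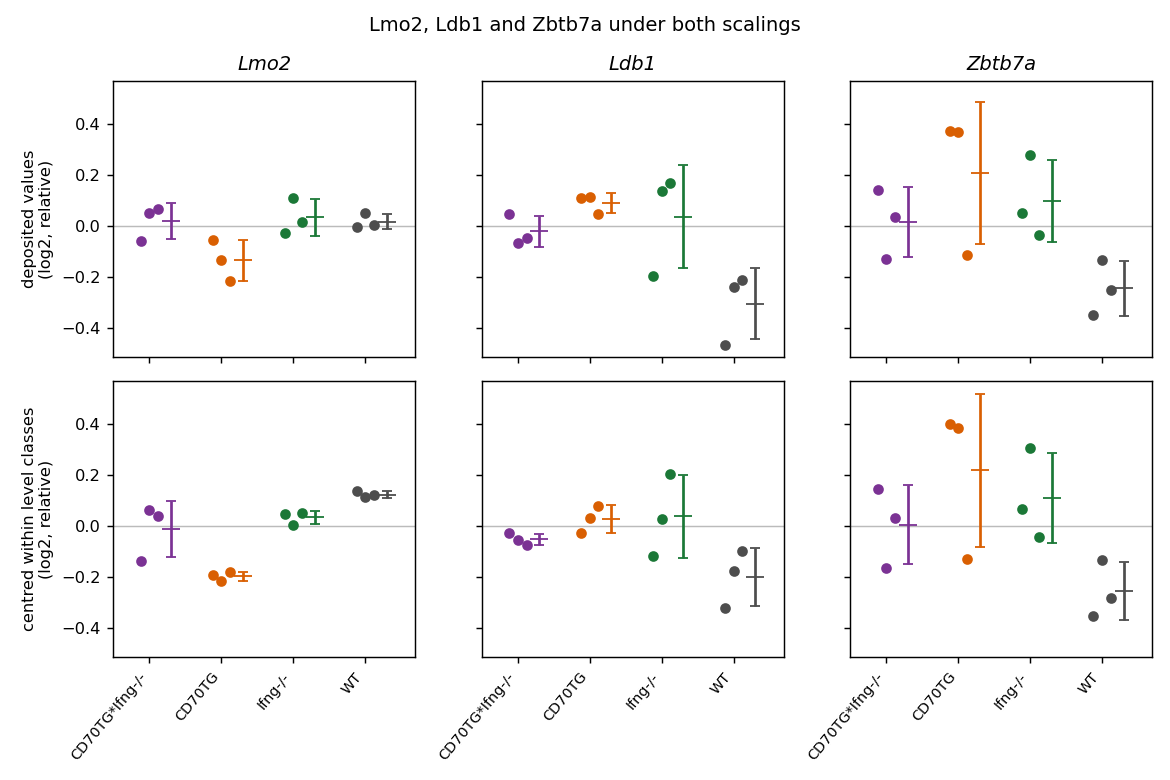
Lmo2, Ldb1 and Zbtb7a as deposited (upper row) and with each array centred within the level classes (lower row), in log2 units, with points for mice and bars for mean ± SD (n = 3). In the lower row the Lmo2 values of CD70TG lie between -0.216 and -0.180 and those of WT between 0.113 and 0.138.

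Among the repressors, Zbtb7a, which in mouse and human red cells helps to silence fetal-type globin, gave 0.143, -0.127 and 0.036 in CD70TG*Ifng-/-, 0.371, 0.368 and -0.114 in CD70TG mice, 0.053, 0.277 and -0.036 in Ifng-/-, and -0.347, -0.133 and -0.251 in WT. The WT mice were again the 3 lowest, but CD70TG 3 lay close to WT 2, and the spread within CD70TG was wide. It rose 1.37-fold in CD70TG against WT (log2 change 0.45 ± 0.13, limma adjusted p = 0.0357). It lies in the lower level class, so centring within the classes changed it little (0.47 ± 0.14, adjusted p = 0.0459), though on that scale it passed in 5 of 12 fits with 1 array left out. The call was lost after quantile normalization (0.42, adjusted p = 0.071) and without WT 1, WT 3, CD70TG 1, CD70TG 2 or CD70TG*Ifng-/- 3, with differences of 0.40, 0.45, 0.37, 0.37 and 0.45.

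Bcl11a gave 0.281, -0.215 and -0.042 in CD70TG*Ifng-/-, 0.231, 0.129 and 0.225 in CD70TG mice, -0.203, 0.043 and -0.119 in Ifng-/-, and -0.309, -0.142 and 0.042 in WT. The 3 CD70TG mice lay above all WT and Ifng-/- mice, and the difference from WT of 0.33 ± 0.12 did not pass (95% interval 0.08 to 0.59, adjusted p = 0.0916), nor did the class-centred difference of 0.35 ± 0.12 (adjusted p = 0.0909). Of the 14 measured B cell markers, in whose precursors Bcl11a is also used, 13 fell and 0 rose in the same comparison. Their median change was -0.84, and 2.7% of all genes fell. Gfi1b averaged 0.063 ± 0.102 in CD70TG*Ifng-/-, 0.096 ± 0.178 in CD70TG, -0.036 ± 0.126 in Ifng-/- and -0.087 ± 0.124 in WT (SD, n = 3). Its highest value was 0.293 in CD70TG 1 and the groups overlapped, with a difference between CD70TG and WT of 0.18 ± 0.10 (adjusted p = 0.274) that was 0.01 ± 0.08 after centring within the level classes.

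The factors shared the lowest place in the order of the 4 group means more than the other places. WT was lowest in 9 of 10, and CD70TG was highest in 7, CD70TG*Ifng-/- in 2 (Klf1 and Nfe2) and Ifng-/- in 1 (Lmo2). The share of all genes with WT lowest was not counted. Genes of the higher level class, which holds 8 of the 10, also had positive median differences from WT. These were 0.16 in CD70TG*Ifng-/-, 0.19 in CD70TG and 0.11 in Ifng-/-. Of 30 neighbouring pairs in the orders of the factors 0 passed the test, and the smallest adjusted p was 0.172, for Ldb1 in CD70TG*Ifng-/- against WT. Neighbouring means differ less than the pairs that span them, so few calls could arise among them. The outer pair, CD70TG against WT, passed for Ldb1 and Zbtb7a. The comparisons that share WT are not independent of each other.

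Without interferon-gamma the transgene was accompanied by no change of any factor that passed the test. In CD70TG*Ifng-/- against Ifng-/-, 0 of 10 factors passed, also at an unadjusted p under 0.05, where 2.5% of all genes passed after adjustment and 12.1% before it. The differences ran from -0.08 for Zbtb7a to 0.10 for Bcl11a, with a median of 0.03, and the groups overlapped in all 10, where 16.4% of all genes did not overlap. The 95% interval of Ldb1 was -0.27 to 0.15, that of Zbtb7a was -0.35 to 0.19 and that of Lmo2 was -0.17 to 0.14. Over these 6 arrays 14 of 15 macrophage markers fell, with a median change of -2.73.

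**Figure D4:**
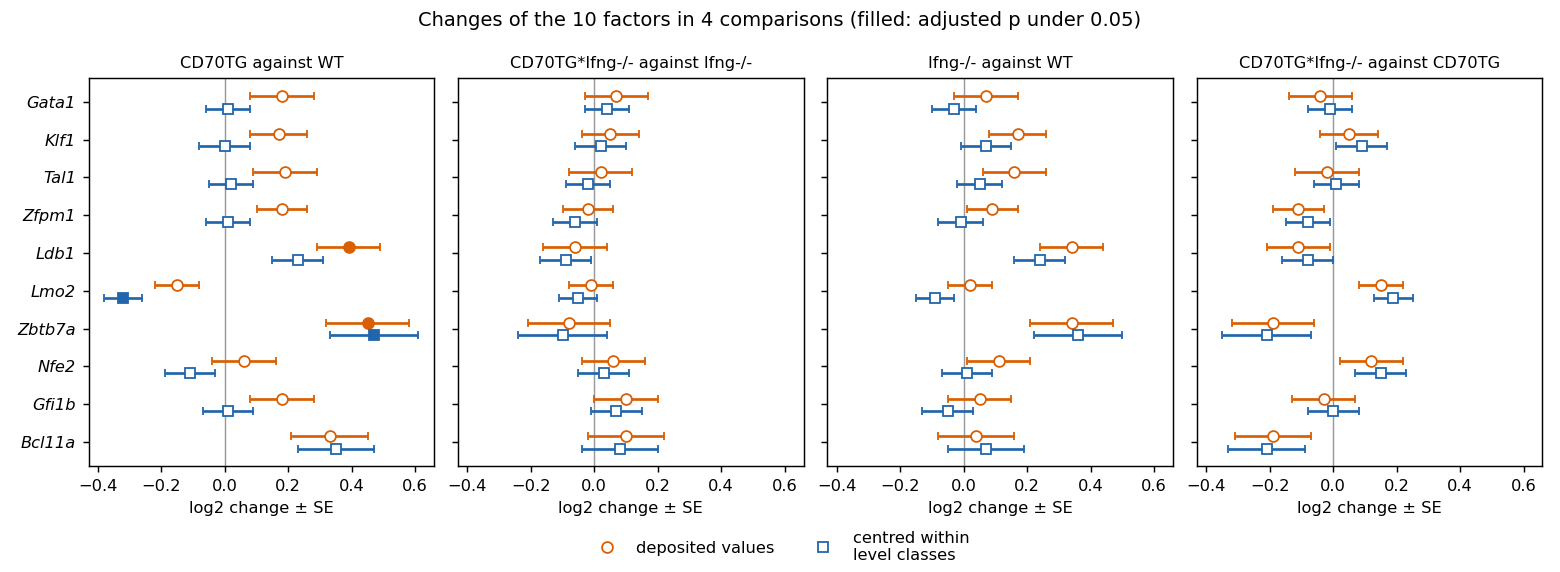
Log2 changes ± SE of the 10 factors in 4 comparisons, from the deposited values (circles) and with each array centred within the level classes (squares). Filled symbols passed at an adjusted p under 0.05. They are Ldb1 and Zbtb7a (circles) and Lmo2 and Zbtb7a (squares), all in CD70TG against WT.

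Whether the transgene effect itself differed with the Ifng genotype was tested as an interaction, the change in CD70TG against WT minus that in CD70TG*Ifng-/- against Ifng-/-. None of the 10 factors passed, where 1.89% of all genes did, and 2 of 10 had an unadjusted p under 0.05, where 20.3% of all genes had. These were Zbtb7a (0.53 ± 0.18, adjusted p = 0.13) and Ldb1 (0.45 ± 0.14, adjusted p = 0.103). With 1 array left out, Ldb1 passed without Ifng-/- 1 (0.57) and Zbtb7a without CD70TG 3 (0.69). For Lmo2 the interaction was -0.14 ± 0.10 (adjusted p = 0.441) on the deposited values and -0.27 ± 0.09 (adjusted p = 0.119) after centring within the level classes, and neither passed. Over all genes the number that passed ran from 82 to 711 with 1 array left out, in place of 377.

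In Ifng-/- against WT no factor passed the test, and all 10 differences between Ifng-/- and WT were positive, from 0.02 for Lmo2 to 0.34 for Ldb1 and Zbtb7a. Their median was 0.10, beside 0.11 for all genes of the higher level class. Of the 10, 2 (Ldb1 and Zbtb7a) had an unadjusted p under 0.05 and lay above WT in every array, against 13.8% of all genes by that p and 9.43% of all genes above WT, and 0.00502% of all genes passed after adjustment. With the transgene present, Ifng loss gave differences from -0.19 for Zbtb7a to 0.15 for Lmo2 in CD70TG*Ifng-/- against CD70TG, and 0 of 10 passed or had an unadjusted p under 0.05, where 1.41% of all genes passed and 11.2% had such a p. Zfpm1 alone lay below CD70TG in every array, as did 8.27% of all genes. Setting both changes against WT, CD70TG*Ifng-/- differed by 0.00 for Lmo2 to 0.28 for Ldb1, with 0 of 10 past the threshold, 2 at an unadjusted p under 0.05 (Ldb1 and Klf1), and 1.79% of all genes passing and 16.1% at that p. In that comparison 5 factors lay above WT in every array, where 14.5% of all genes did. The share within the higher level class, to which most of the factors belong, was not counted. CD70TG set against Ifng-/- gave 0 of 10 past the threshold, where 3.25% of all genes passed, and 2 at an unadjusted p under 0.05, where 12.6% were. These were Bcl11a, above Ifng-/- in every array by 0.29 ± 0.12 (8.21% of all genes lay above), and Lmo2, below it with a difference of -0.17 ± 0.07 (7.08% lay below).

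The partner proteins of these factors were given the same tests. Of 26 measured cofactors and partners, 8 rose and 0 fell in CD70TG against WT, with a median change of 0.22. Over all genes 8.23% rose. In the higher level class, which holds 20 of the 26, 22.4% of genes rose with a median of 0.19. Kdm1a, the histone demethylase that Gfi1b recruits to repress genes, rose by 0.59 ± 0.10 (limma, adjusted p = 0.00206), and its partner Rcor1 rose by 0.40. Mta2 (0.33) and Mbd3 (0.28), subunits of the NuRD repressor complex that Zfpm1 recruits, rose with Mta1 (0.27) and Rbbp7 (0.32), as did Tcf12 (0.40), a dimer partner of Tal1, and the remodelling ATPase Smarca4 (0.29). With centring within the level classes 3 rose (Kdm1a, Tcf12 and Mta1, all of the lower level class), where 5.8% of all genes rose. The small Maf protein Mafg, a partner of Nfe2, fell by 0.27, where 3.12% of all genes fell. After quantile normalization 4 of the 26 rose, and with 1 array left out between 1 and 9 did, with 1 without WT 1, CD70TG 1 or CD70TG 2. In CD70TG*Ifng-/- against Ifng-/- 0 of 26 passed.

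Of 15 other red cell transcription factors, 0 passed in CD70TG against WT, with a median of 0.16. With centring within the level classes 4 fell and 0 rose: Klf3 (-0.46 ± 0.08, adjusted p = 0.00428), which competes with Klf1 at CACC boxes, Foxo3 (-0.36 ± 0.06), a factor of late maturation, E2f2 (-0.37 ± 0.08) and Mxi1 (-0.34 ± 0.06), both linked to cell cycle exit and nuclear condensation. On the deposited values these 4 differed by -0.29, -0.19, -0.20 and -0.18, and none passed (limma, adjusted p = 0.0985, 0.133, 0.212 and 0.134). All 4 lie in the higher level class, whose shared shift the centring removes. With that centring 3.12% of all genes fell and 5.8% rose, and the shares within the higher level class were not counted.

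Of 28 measured genes that Gata1 and Klf1 activate, 4 fell and 1 rose in CD70TG against WT: the survival gene Bcl2l1 (-0.50 ± 0.08, limma adjusted p = 0.00206), Alas2 (-0.43), the last haem synthesis enzyme Fech (-0.48) and Trim10 (-0.44) fell, and Tfr2 (0.40) rose. Over all genes 2.7% fell and 8.23% rose. The median of the list was 0.05, and it was -0.12 with centring within the level classes, so its sign depends on the scaling. With that centring 8 fell and 0 rose, where 3.12% of all genes fell and 5.8% rose. In the higher level class, which holds 27 of the 28, the centring lowers every change in this comparison. The share of that class that fell under the centring was not counted. On the deposited values with 1 array left out, 4 fell in each of the 12 fits and between 0 and 3 rose. The rise of Tfr2 did not pass after quantile normalization. In CD70TG*Ifng-/- against Ifng-/- 0 of 28 passed, with a median of 0.11. Against CD70TG, CD70TG*Ifng-/- had higher Trim10 (0.45 ± 0.09, adjusted p = 0.0191), with a median over the list of 0.11.

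Of 8 measured genes that Gata1 represses as cells mature, Myc (1.25 ± 0.17, limma adjusted p = 0.000467) and Cdk6 (0.83 ± 0.15) rose in CD70TG against WT and 0 fell. Over all genes 8.23% rose and 2.7% fell. The progenitor genes Kit and Gata2 differed by 0.44 ± 0.17 (adjusted p = 0.121) and 0.11 ± 0.09 (adjusted p = 0.442). Gata2 is the factor that Gata1 replaces at its sites, and its probe set gave no change that passed here. The interaction passed for Myc (1.38 ± 0.23, adjusted p = 0.0119).

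Of 12 measured factors of other blood lineages, which oppose Gata1 or mark other cells, 4 fell and 0 rose in CD70TG against WT: Id2 (-1.10 ± 0.19, limma adjusted p = 0.00327), the B cell factors Pax5 (-0.49) and Ebf1 (-0.84), which are also among the B cell markers, and Meis1 (-0.29). Over all genes 2.7% fell and 8.23% rose. Spi1, whose product PU.1 binds Gata1 and blocks it, differed by -0.28 ± 0.19 in CD70TG against WT (adjusted p = 0.353) and by -0.69 ± 0.19 in CD70TG*Ifng-/- against Ifng-/- (adjusted p = 0.0782). In the second comparison Id2 (-1.84) and Irf8 (-0.74 ± 0.15, adjusted p = 0.0136) fell. All 12 lie in the lower level class. With centring within the classes 3 of the 4 falls in CD70TG against WT passed, where 3.12% of all genes fell.

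**Figure D5:**
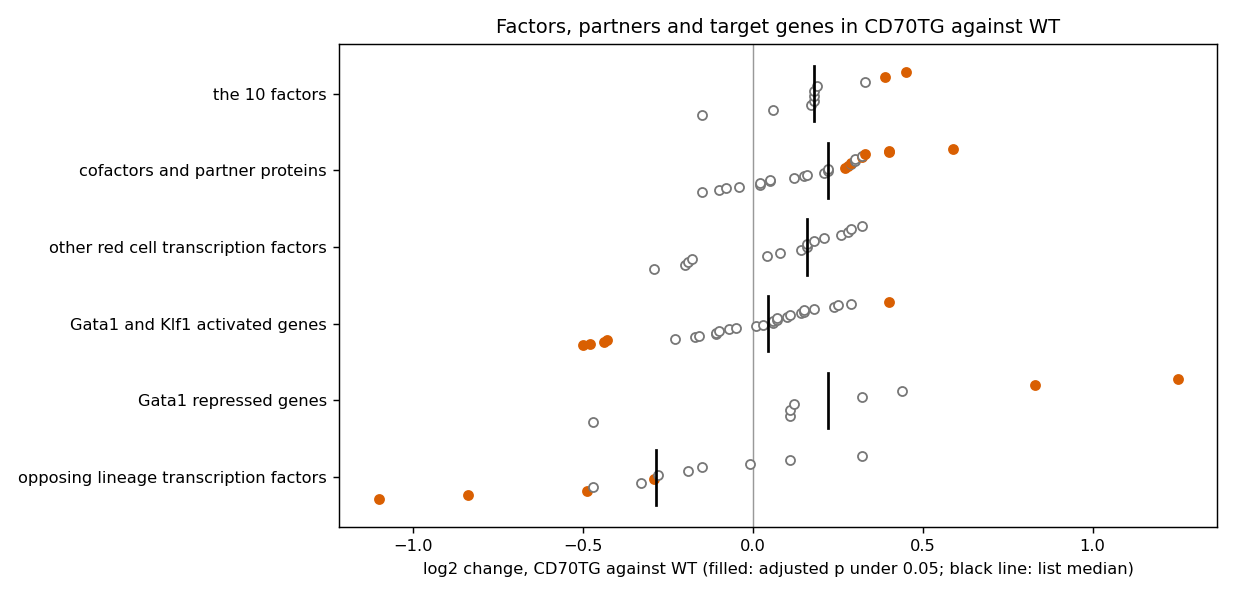
Log2 change in CD70TG against WT of the 10 factors and of 5 lists of partner, target and opposing genes. Each point is a gene, filled where the adjusted p was under 0.05, and the black line is the list's median. Ldb1 and Zbtb7a are filled among the factors, 8 points among the partners, and Myc stands farthest to the right at 1.25.

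Markers of other marrow cells moved over the same arrays. The mean of the 15 macrophage markers ran from -1.33 to -1.25 in CD70TG*Ifng-/-, from -0.95 to -0.68 in CD70TG, from 1.09 to 1.51 in Ifng-/- and from 0.71 to 1.34 in WT, and 14 of the 15 fell in CD70TG against WT. That of the 14 B cell markers ran from -0.15 to -0.03 in CD70TG*Ifng-/-, from -0.50 to -0.40 in CD70TG, from 0.02 to 0.42 in Ifng-/- and from 0.13 to 0.52 in WT. That of the 13 neutrophil markers ran from -0.49 to -0.17 in CD70TG*Ifng-/-, from -0.22 to 0.16 in CD70TG, from -0.61 to 1.71 in Ifng-/- and from 0.82 to 0.96 in WT. In CD70TG against WT 1 neutrophil marker rose and 4 fell, but with 1 array left out between 0 and 2 rose and between 0 and 10 fell, with 0 falls without WT 1, WT 2 or CD70TG 1 and 10 without Ifng-/- 1 or Ifng-/- 2. In the same comparison 3 of 12 mast cell, basophil and eosinophil markers, 1 of 12 T and NK cell markers and 1 of 9 stem and progenitor markers fell. Over all genes 2.7% fell and 8.23% rose in it. In bulk samples fewer cells of a type and less RNA per cell cannot be told apart, and the part of these markers in the differences of the factors was not tested. The mean of the 7 red cell precursor markers ran from 0.01 to 0.09 in CD70TG*Ifng-/-, from -0.21 to 0.01 in CD70TG, from -0.10 to 0.03 in Ifng-/- and from -0.08 to -0.02 in WT, lowest in CD70TG 3, the array in which 9 of the 10 factors, all but Bcl11a, were also lowest of their group. The mean of the 8 megakaryocyte markers, of a lineage that shares Gata1, Zfpm1, Nfe2 and Gfi1b, ran from -0.01 to 0.10 in CD70TG*Ifng-/-, from -0.11 to 0.03 in CD70TG, from -0.10 to 0.05 in Ifng-/- and from -0.02 to 0.05 in WT, and 0 of the 8 passed.

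The likeness of each factor's pattern to other genes was measured as Pearson's r over the 12 arrays, a description in which all genes share the arrays and their scaling. The genes most like Gata1 were Abhd10 (0.96) and Spc24 (0.95), those most like Klf1 were Vrk3 (0.95) and Tssc4 (0.94), and those most like Ldb1 were Paics (0.95) and Rcc1 (0.95). For Zbtb7a they were Shc1 (0.98) and Tubgcp4 (0.98), for Tal1 Sass6 (0.97) and Ankhd1 (0.96), for Zfpm1 Ankrd27 (0.96) and Exosc10 (0.94), and for Lmo2 Rmnd5a (0.94) and Fam110c (0.93). For Nfe2 they were Dcaf10 (0.93) and Letm2 (0.92), for Gfi1b Mbtps1 (0.93) and Dnm2 (0.93), and for Bcl11a Atad3a (0.95) and Pomt1 (0.94). No factor had another factor as its most similar gene. The closest pairs among the 10 were Tal1 with Zbtb7a (0.90) and Klf1 with Ldb1 (0.86), and Lmo2 was the least similar member for 8 of the other 9, down to -0.55 with Bcl11a.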

How the data were processed

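CD71-enriched bone marrow cells of 12 mice were measured on 1-colour whole-transcript arrays, 1 per mouse. The authors deposited log2 values from RMA, per the submitters' processing notes, with no version named. Every probe set's median over the 12 arrays is 0 within 0.000001, so levels are not held. The log base and direction are those RMA gives, and how the values were centred is unknown. Of 28815 probe sets, 21780 carry 1 symbol in the platform annotation, 1605 several and 5430 none; the first were averaged per gene (19935 genes, of which 998 had several probe sets), and each factor has 1. The rounding step of the deposited numbers, left by single precision in the uncentred values, put 4358 probe sets at 8 or more on the original log2 scale in all 12 arrays (tolerance 0.05 of a step, without values under 0.001). That class held 47 of 67 genes for ribosomal proteins but 1 of 1027 for olfactory receptors. A gene was put in it if any of its probe sets was.

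Groups came from the labels. All genes were fitted with 4 group means in limma 3.58.1 under R 4.3.3, by lmFit then eBayes, which gave 8 residual and 6.23 prior degrees of freedom. Tests were two-sided, with Benjamini-Hochberg adjustment over 19935 genes and a threshold of 0.05; 95% intervals are limma's and not adjusted. All adjusted p-values are from limma. The factors and lists were chosen with earlier results of these data known. Named were all 10 factors, up to 3 genes with the smallest p of each list, and the 2 genes most like each factor. Other list genes that passed, with Kit and Gata2, were named after their values were seen. Lists held only genes measured by a probe set with 1 symbol. The number of arrays limits the precision. The p-values set a difference against the spread within groups, which with 1 array per mouse holds differences of mice and of arrays together. The alternatives tried were quantile normalization, median centring, centring within the level classes, the higher class alone, a replicate block, the compared groups alone, 1 probe set per gene and arrays left out. Same-numbered mice of different groups did not deviate together: 6 of 18 pairs correlated over 0.1 (from -0.401 to 0.311).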

Additional observations from a re-analysis of the deposited data

How the results depend on the processing

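The causes of these changes were not tested. Across quantile normalization, centring of each array, centring within the level classes, a filter to the higher level class, a replicate block, fits to the compared groups alone, and arrays left out, the number of factors that passed stayed at 0 in CD70TG*Ifng-/- against Ifng-/-, Ifng-/- against WT, CD70TG*Ifng-/- against CD70TG, CD70TG*Ifng-/- against WT and CD70TG against Ifng-/-. The fit with 1 probe set per gene held the same values of the factors, which have 1 each, so it is no check of them. In CD70TG against WT it was 2 on the deposited values, 1 after quantile normalization (Ldb1), 1 of 8 among genes of the higher level class (Ldb1) and from 0 to 3 with 1 array left out. It was 0 without WT 1, CD70TG 1 or CD70TG 2. For the interaction it was 0, with 1 of 8 (Ldb1, adjusted p = 0.0489) among genes of the higher level class and from 0 to 1 with 1 array left out. With the arrays of CD70TG and WT alone Bcl11a passed too (0.33, adjusted p = 0.0442), and likewise without CD70TG*Ifng-/- 1 (adjusted p = 0.047). Centring within the level classes changed the sign of 15 of 70 differences of factors, none of which passed in either scaling, and 0 differences changed sign where either setting passed. With the replicate number as a block the count stayed at 2 in CD70TG against WT, where 1668 genes passed in place of 2179, and changed no call of a factor; the cofactors that rose were 4 in place of 8. For the interaction the block gave 128 genes in place of 377. Leaving out CD70TG 3 and Ifng-/- 2 together gave 2 factors and 3686 genes in CD70TG against WT, 13 of 26 cofactors and 5 of 15 other red cell factors higher. Centring within the classes with 1 array left out was chosen after seeing the data: Ldb1 passed in 0 of 12 such fits (0.16 to 0.28), Zbtb7a in 5 (0.38 to 0.65) and Lmo2 in 12. Signal over background is known only as the level classes.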
